A study of Mus musculus with 6 samples.

Results

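The messenger RNA of 10 genes that belong to the p53 growth arrest program was examined in the kidneys of iron-deficient and iron-sufficient mouse pups. The genes were Cdkn1a, Trp53, Mdm2, Ccng1, Gadd45a, Gadd45g, Btg2, Sesn1, Sesn2 and Trp53inp1. They were chosen by symbol for their known roles, to see whether Cdkn1a rose together with other genes of the program or alone. All 10 symbols were found among the 24422 genes of the count tables, and all 10 were among the 15145 genes that passed the filter on low counts. In FeD kidneys 6 of the 10 genes rose, namely Cdkn1a, Trp53inp1, Btg2, Sesn2, Sesn1 and Mdm2. Over all 15145 genes tested, 22.4% were called higher and 23.3% lower. Cdkn1a rose 7.15-fold, the largest change of the 10, whereas Trp53 itself, Ccng1, Gadd45a and Gadd45g did not pass the test.

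The kidneys came from 6 wild type C57BL/6 pups at postnatal day 15, 3 in each group. The FeD group were pups of dams that ate an iron-deficient diet with 2 to 6 ppm iron. The control group were pups of dams that ate an iron-sufficient diet with 220 ppm iron, and neither group carried a transgene. The dams of both groups were 8 weeks old when they were assigned to a diet. The diets started before mating with C57BL/6 males and went on to the day of collection, so the pups met the diet before and after birth. Each library held polyadenylated RNA of a whole kidney, and the labels give neither litter nor sex, so litter and diet cannot be told apart. Fewer cells of a type and less RNA per cell cannot be told apart in whole kidneys either.

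The transcription factor p53, the product of Trp53, is made in most cells and is mainly controlled as a protein. The ubiquitin ligase Mdm2 marks p53 for destruction, and p53 in turn switches on Mdm2, which closes a feedback loop. When DNA damage or other stress stabilizes p53, it switches on genes that stop the cell cycle, repair DNA, restrain growth signalling or kill the cell. Cdkn1a encodes p21, the inhibitor of cyclin-dependent kinases that carries much of the arrest. Several of these genes also answer to other transcription factors, so a transcript that rises does not by itself show p53 activity.

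Kidney markers were abundant in every library. Their summed level was 265924 to 285782 normalized counts in control kidneys and 155677 to 230700 in FeD kidneys. Normalized counts are raw counts scaled to the mean library size of 17866551 reads. Of the 9 kidney markers 4 fell on the log2 scale, namely Slc34a1 (-2.22) and Lrp2 (-0.48) of the proximal tubule, Slc12a3 (-1.56) of the distal convoluted tubule and Cdh16 (-0.60). Aqp2 of the collecting duct rose by 1.13 and the other 4 were not called. The call of Cdh16 was lost without FeD kidney 1 (-0.56). The part of these segment differences in the changes of the 10 genes was not tested. The 9 adrenal markers summed to 17140 normalized counts in FeD kidney 2, to 1414 in control kidney 1 and to 143 to 228 in the remaining 4 kidneys. Each rise reported for the 10 genes is therefore also given without FeD kidney 2.

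A search of the genome around the gene starts shows where the letters of the p53 binding motif occur near these genes. The motif is the p53 consensus, a pair of adjacent 10-base sites of which each has a central C and G. It was searched on both strands within 5000 bases of the annotated gene start, with both C and G pairs intact and at most 1 mismatch elsewhere. Such a match was found near 2 of the 10 genes, Cdkn1a and Ccng1, compared with 266 of 13729 tested genes with a single position (1.94%). The matches are shown because they fall on genes that behaved differently, Cdkn1a with the largest rise and Ccng1 with no call. Capitals mark the 20 bases of the motif, and the flanks are in lower case:
Cdkn1a, chr17:29227863-29227902, plus strand, mm9: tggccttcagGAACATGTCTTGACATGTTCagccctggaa
Ccng1, chr11:40568428-40568467, minus strand, mm9: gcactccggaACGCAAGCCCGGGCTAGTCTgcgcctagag
Ccng1, chr11:40568954-40568993, minus strand, mm9: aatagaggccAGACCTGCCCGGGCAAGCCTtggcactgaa
The centre of the Cdkn1a motif was at -42 bases relative to the annotated gene start, and the centres of the Ccng1 motifs were at -160 and 366 bases, counted along the strand of each gene. The gene start was the outermost upstream base of the annotated gene, and the starts of single transcripts were not used. A match is a description of letters in these windows and no proof of binding. Pairs with a spacer or with more mismatches were not searched for. A window without a match therefore says nothing about binding inside it or elsewhere.

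Trp53 (chromosome 11, 69393861 to 69405375, plus strand) was expressed at the same order of level in both groups. Control kidneys 1, 2 and 3 held 800, 757 and 834 normalized counts, and FeD kidneys 1, 2 and 3 held 798, 668 and 834. The groups overlapped, and FeD kidney 2 was the lowest of the 6. The means were 797 ± 38.6 in control and 767 ± 87.6 in FeD kidneys (SD, n = 3 each), with a log2 fold change of -0.05 (SE 0.10, edgeR adjusted P = 0.683). The 95% interval of the log2 fold change ran from -0.28 to 0.17. Its sign turned without FeD kidney 2, to 0.06, with no call.

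Mdm2 (chromosome 10, 117125944 to 117147814, minus strand) encodes the ubiquitin ligase that removes p53. Its normalized counts were 954, 900 and 928 in control kidneys 1, 2 and 3 and 1160, 1124 and 1255 in FeD kidneys 1, 2 and 3. All FeD kidneys were above all control kidneys. Mdm2 rose from 927 ± 27.2 to 1180 ± 67.7, with a log2 fold change of 0.35 (SE 0.07, edgeR adjusted P = 0.00462), and by 0.40 without FeD kidney 2. This was the smallest of the 6 rises, although the low spread between kidneys let it pass the test. The ratio of Mdm2 to Trp53 was 1.11 to 1.19 in control and 1.45 to 1.68 in FeD kidneys.

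Cdkn1a (chromosome 17, 29227924 to 29237667, plus strand) encodes p21. Control kidneys 1, 2 and 3 held 403, 412 and 473 normalized counts, and FeD kidneys 1, 2 and 3 held 3564, 3040 and 2615. The lowest FeD kidney was far above the highest control kidney, with FeD kidney 1 the highest and FeD kidney 3 the lowest of the FeD kidneys. The means were 429 ± 38.0 and 3073 ± 475, with a log2 fold change of 2.84 (SE 0.12, 95% interval 2.55 to 3.12, edgeR adjusted P = 8.86e-06). Without FeD kidney 2 the log2 fold change was 2.87. Ordered by log2 fold change, Cdkn1a was number 79 from the top of the 15145 genes tested.

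Btg2 (chromosome 1, 135971747 to 135975697, minus strand) encodes an antiproliferative protein that works with the machinery that shortens poly(A) tails. Its normalized counts were 788, 892 and 761 in control kidneys 1, 2 and 3 and 2256, 1630 and 1232 in FeD kidneys 1, 2 and 3. The groups did not overlap, but FeD kidneys spread widely, with FeD kidney 1 the highest and FeD kidney 3 the lowest. Btg2 rose from 814 ± 69.1 to 1706 ± 516, with a log2 fold change of 1.07 (SE 0.20, edgeR adjusted P = 0.00292), and by 1.12 without FeD kidney 2. The log2 fold change fell to 0.83 when FeD kidney 1 was left out, with the gene still called higher but below 2-fold.

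Ccng1 (chromosome 11, 40562054 to 40568813, minus strand) encodes cyclin G1, a p53 target that feeds back on Mdm2. Its normalized counts were 1860, 1979 and 1965 in control and 1843, 1906 and 2355 in FeD kidneys 1, 2 and 3. FeD kidney 3 stood above the rest and the other FeD kidneys lay among or just below the controls. The log2 fold change was 0.07 (SE 0.10, 95% interval -0.14 to 0.29, edgeR adjusted P = 0.552), and -0.04 without FeD kidney 3. Its interval ended below the estimate for Mdm2, the smallest rise that was called, at 0.35. The 95% interval of Mdm2, 0.19 to 0.51, overlapped that of Ccng1, and the difference between these genes was not tested.

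Gadd45a and Gadd45g encode small stress proteins that bind PCNA and p21 and act upstream of the p38 and JNK kinases. Gadd45a (chromosome 6, 66985090 to 66987451, minus strand) held 520, 579 and 589 normalized counts in control and 530, 446 and 484 in FeD kidneys 1, 2 and 3. FeD kidney 1 lay within the control range and the other FeD kidneys below it. Its log2 fold change was -0.21 (SE 0.09, 95% interval -0.42 to 0.01, edgeR adjusted P = 0.105). The gene E230016M11Rik lies across 19.1% of its exon bases on the opposite strand, and because the strand setting of the counting is not stated, the reads of both cannot be told apart there.

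Gadd45g (chromosome 13, 51942047 to 51943837, plus strand) held 991, 1105 and 1005 normalized counts in control and 1057, 843 and 843 in FeD kidneys 1, 2 and 3. FeD kidneys 2 and 3 were below all controls, and FeD kidney 1 was among them. The log2 fold change was -0.18 (SE 0.10, 95% interval -0.42 to 0.06, edgeR adjusted P = 0.2). Without FeD kidney 1 the log2 fold change was -0.28 and the gene was called lower (edgeR adjusted P = 0.0326), so for Gadd45g that kidney decided the call.

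Sesn1 and Sesn2 encode sestrins, which restrain the growth kinase mTORC1 and limit oxidative damage. Sesn1 (chromosome 10, 41530380 to 41628230, plus strand) held 744, 737 and 656 normalized counts in control and 1050, 1212 and 934 in FeD kidneys 1, 2 and 3. The groups did not overlap, with FeD kidney 2 the highest. Sesn1 rose from 712 ± 49.0 to 1066 ± 139, with a log2 fold change of 0.58 (SE 0.11, edgeR adjusted P = 0.00319), and by 0.50 without FeD kidney 2.

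Sesn2 (chromosome 4, 132047947 to 132066416, minus strand) held 530, 481 and 515 normalized counts in control and 1133, 981 and 725 in FeD kidneys 1, 2 and 3. The groups did not overlap, and FeD kidney 1 was again the highest and FeD kidney 3 the lowest FeD kidney, as for Cdkn1a and Btg2. Sesn2 rose from 509 ± 24.9 to 947 ± 206, with a log2 fold change of 0.89 (SE 0.15, edgeR adjusted P = 0.00217), and by 0.89 without FeD kidney 2. The ratio of Sesn2 to Sesn1 overlapped between the groups, at 0.65 to 0.78 in control and 0.78 to 1.08 in FeD kidneys, so a larger rise of Sesn2 was not resolved.

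Trp53inp1 (chromosome 4, 11083578 to 11101526, plus strand) encodes a stress-induced protein that promotes p53 activity and autophagy. It held 1007, 1025 and 814 normalized counts in control and 2892, 3609 and 2783 in FeD kidneys 1, 2 and 3. All FeD kidneys were far above all controls, with FeD kidney 2 the highest. Trp53inp1 rose from 949 ± 117 to 3094 ± 449, with a log2 fold change of 1.71 (SE 0.12, edgeR adjusted P = 5.16e-05), and by 1.60 without FeD kidney 2. It had the second largest fold change of the 10 genes and, in normalized counts not corrected for length, its FeD kidneys overlapped those of Cdkn1a.

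**Figure D1:**
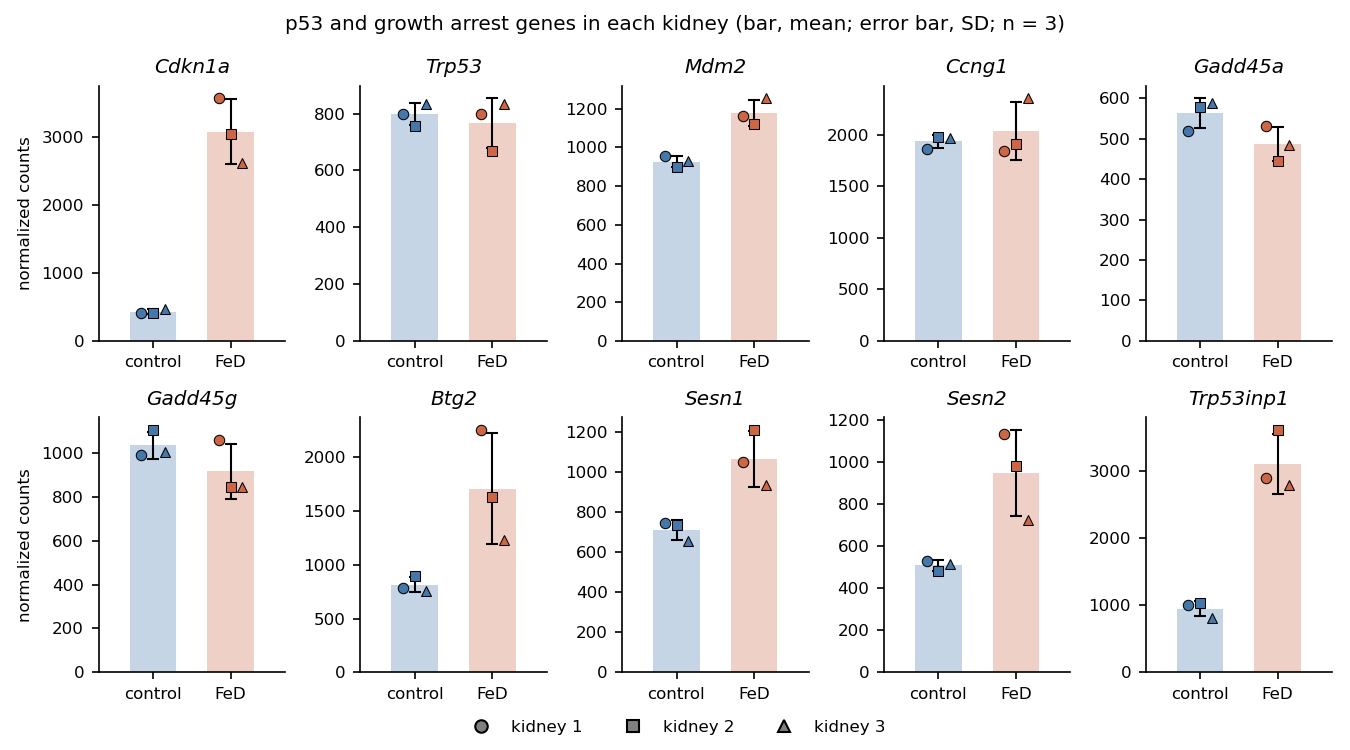
Normalized counts (vertical axes, from 0, a scale for each gene) of the 10 genes in control and FeD kidneys; bars are means, error bars SD of 3 kidneys, and symbols single kidneys. FeD kidneys lie above all control kidneys for Cdkn1a, Mdm2, Btg2, Sesn1, Sesn2 and Trp53inp1, with Cdkn1a at 2615 to 3564 compared with 403 to 473, and overlap them for Trp53, Ccng1, Gadd45a and Gadd45g.

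The diet group differed in a large share of all genes, which sets the scale for these counts. Of the 15145 genes tested, 22.4% were called higher in FeD kidneys and 23.3% lower at an adjusted P under 0.05 by edgeR. Among the 10 genes edgeR called 6 higher and 0 lower. The same numbers, 6 and 0, resulted from DESeq2 and from an unadjusted P under 0.05. Of all tested genes 28.4% had every FeD kidney above every control kidney, which held for 6 of the 10. A rise of at least 2-fold was called for 4.34% of all genes and for 3 of the 10, Cdkn1a, Trp53inp1 and Btg2. The median log2 fold change was 0.46 over the 10 genes and -0.002 over all genes tested. With 3 kidneys in each group, the smallest P that an exact permutation test could give for any gene taken alone is 0.1.

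**Figure D2:**
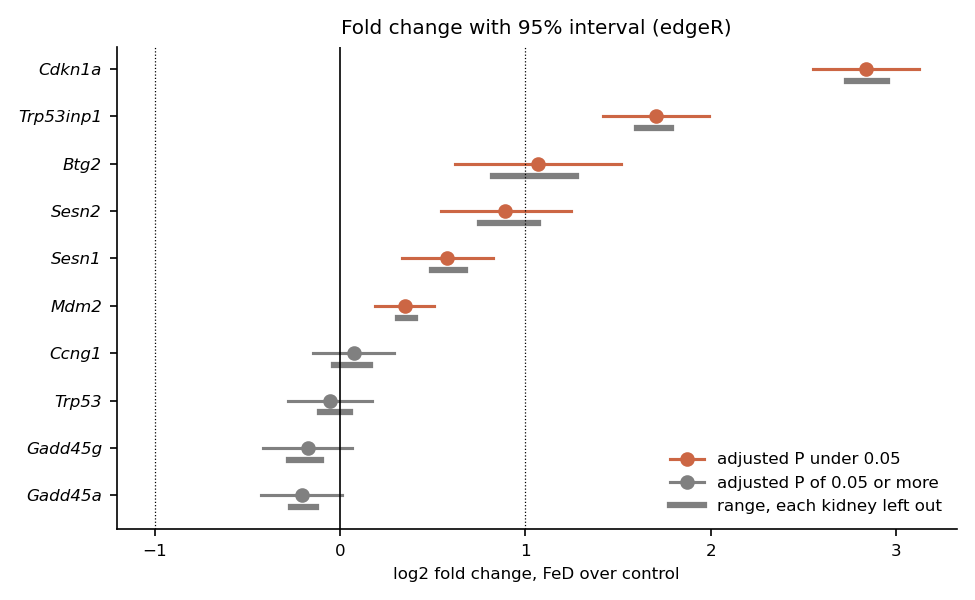
Log2 fold change of FeD over control (horizontal axis) for the 10 genes, with points for the edgeR estimate, thin lines for the 95% interval and thick gray lines for the range when each kidney was left out in turn; dotted lines mark 2-fold. Cdkn1a at 2.84 lies clear of Trp53inp1 at 1.71, and the 6 called genes keep intervals above 0.

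Cdkn1a did not rise alone, but it rose more than each of the other genes. The ratio of Cdkn1a to Trp53inp1, its nearest neighbour, was 0.40, 0.40 and 0.58 in control kidneys 1, 2 and 3 and 1.23, 0.84 and 0.94 in FeD kidneys 1, 2 and 3. The ratio was higher in every FeD kidney than in every control kidney, and its mean was 2.18-fold higher. The 95% interval of the log2 fold change of Trp53inp1, 1.42 to 1.99, lay below that of Cdkn1a. The mean ratio of Cdkn1a to Btg2 rose 3.49-fold, to Sesn2 3.89-fold, to Sesn1 4.78-fold and to Mdm2 5.66-fold, and FeD kidneys were above all controls in each of these ratios. Relative to the 4 uncalled genes the mean ratio was 6.98-fold (Ccng1) to 8.28-fold (Gadd45a) higher.

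The 3 FeD kidneys did not rank the genes alike. FeD kidney 1 was the highest for Cdkn1a, Btg2 and Sesn2, FeD kidney 2 for Sesn1 and Trp53inp1, and FeD kidney 3 for Mdm2. FeD kidney 3 was the lowest FeD kidney for all the called genes other than Mdm2. On the log2 scale relative to the control mean, Btg2 ranged from 0.60 in FeD kidney 3 to 1.47 in FeD kidney 1, Sesn2 from 0.51 to 1.16 and Cdkn1a from 2.61 to 3.05. Mdm2 was the most even, from 0.28 to 0.44.

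Levels between genes were compared as RPKM, the read count scaled to both exon length and library size. In control kidneys the order of mean RPKM was Gadd45g (49.3), Ccng1 (30.8), Gadd45a (17.8), Btg2 (16.6), Sesn1 (12), Trp53 (11), Cdkn1a (10.8), Mdm2 (10.2), Trp53inp1 and Sesn2 (both 8.19). Neighbours in this order overlapped between kidneys, except that Gadd45g was above Ccng1, Ccng1 above Gadd45a, Btg2 above Sesn1 and Mdm2 above Trp53inp1 in all kidneys. In FeD kidneys Cdkn1a moved to the top at 77.3 ± 12 RPKM, followed by Gadd45g (43.6), Btg2 (34.8), Ccng1 (32.4), Trp53inp1 (26.7), Sesn1 (17.9), Gadd45a (15.4), Sesn2 (15.2), Mdm2 (13) and Trp53 (10.6). Of these neighbours, Cdkn1a and Gadd45g, Trp53inp1 and Sesn1, and Mdm2 and Trp53 were apart in all kidneys. Gadd45g was thus the most abundant transcript per length in control kidneys and Cdkn1a in FeD kidneys.

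**Figure D3:**
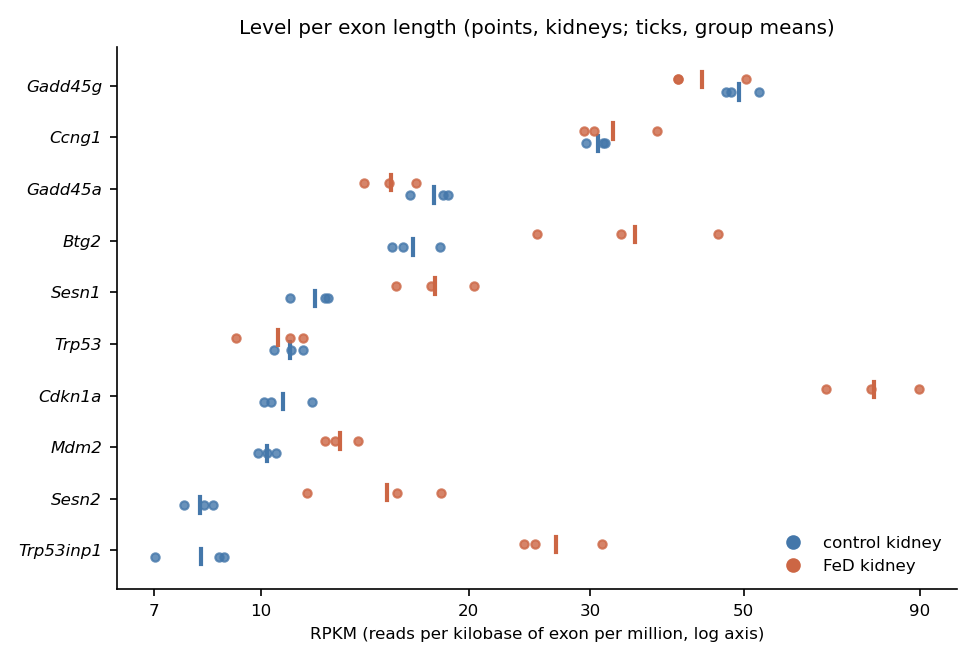
RPKM (horizontal log axis) of the 10 genes in each control and FeD kidney, ordered by the control mean; points are kidneys and ticks group means. Cdkn1a moves from 10.8 to 77.3 RPKM, above Gadd45g at 43.6, and Trp53 stays near 11.

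Relatives of the 10 genes by sequence moved in both directions. Of 11 paralogues 9 were tested, and 4 of them rose, 2 fell and 3 were not called, with a median log2 fold change of 0.20. Called higher were 44.4%, compared with 22.4% of all genes, and called lower 22.2%, compared with 23.3%. Trp73 and Btg3 were below the filter. Btg1, a relative of Btg2, rose from 2709 ± 120 to 4756 ± 367 normalized counts, with a log2 fold change of 0.81 (SE 0.08, edgeR adjusted P = 0.000141). Ccng2, an arrest cyclin, rose by 0.71 on the log2 scale where Ccng1 was not called, and Gadd45b rose by 0.61 where Gadd45a and Gadd45g were not called. The call of Gadd45b was lost without control kidney 2, control kidney 3 or FeD kidney 1, with log2 fold changes of 0.52 to 0.61.

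The relatives of Cdkn1a divided. Cdkn1b, which encodes p27, rose by 0.53 on the log2 scale (1235 ± 36.5 to 1781 ± 50.9 normalized counts), and Cdkn1c, which encodes p57 and is expressed in developing podocytes, fell by 0.89 (2152 ± 216 to 1159 ± 70.0). Trp53inp2 likewise fell by 0.71 on the log2 scale, opposite to Trp53inp1. Mdm4, the partner of Mdm2, had a log2 fold change of 0.16 and an edgeR adjusted P of 0.0687, and it was called higher, at 0.21, without FeD kidney 1. Sesn3 at -0.33 and Trp63 at 0.20 were not called either, although Sesn3 was called lower, at -0.62, without FeD kidney 3.

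Among 44 other p53 targets in 4 lists by role, 42 were tested, 15 rose, 8 fell and 19 were not called. The median log2 fold change was 0.06, and that over all genes was -0.002. Rises of at least 2-fold were called for 3 of the 42 and falls of at least 2-fold for 4. The 35.7% called higher stand beside 22.4% of all genes, and the 19.0% called lower beside 23.3%. The p53 motif was found near 6 of the 40 of these genes with a single position.

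Of 8 DNA repair and nucleotide targets 5 rose, 0 fell and 3 were not called, with a median log2 fold change of 0.46. The 62.5% called higher stand beside 22.4% of all genes, and the 0 called lower beside 23.3%. At an unadjusted P under 0.05 and by DESeq2 the count lower was 0 too. Xpc, which recognizes damage in nucleotide excision repair, rose from 1322 ± 70.1 to 1818 ± 133 normalized counts, with a log2 fold change of 0.46 (edgeR adjusted P = 0.0016). Its partner Ddb2 rose by 0.46 on the log2 scale, the excision nuclease Ercc5 by 0.48, the bypass polymerase Polk by 0.57 and the p53-induced ribonucleotide reductase subunit Rrm2b by 0.54. Polh (0.24), Pcna (-0.10) and Rps27l (-0.02) were not called. The call of Ddb2 was lost without control kidney 2, control kidney 3 or FeD kidney 1 (0.38 to 0.46).

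Of 13 cell death targets 4 rose, 0 fell and 9 were not called, with a median log2 fold change of 0.13. Called higher were 30.8%, compared with 22.4% of all genes, and called lower 0, compared with 23.3%. By DESeq2 and at an unadjusted P under 0.05 the count lower was likewise 0. The BH3-only gene Pmaip1 rose by 0.86 on the log2 scale (87.3 ± 11.7 to 158 ± 6.11 normalized counts), the apoptosome gene Apaf1 by 0.66, the death receptor Fas by 0.62 and Perp by 0.26. Perp was no longer called without any of the control kidneys in turn or with the replicate block (0.21 to 0.28). The textbook death targets Bax (-0.06) and Bbc3 (0.16), which encodes Puma, were not called, nor was Zmat3 (0.13). Aen, Ei24, Eda2r, Bid, Tnfrsf10b and Pidd1 were also not called, with log2 fold changes of -0.44 to 0.26, and of these Pidd1 was called lower, at -0.72, without FeD kidney 1.

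Of 11 feedback and signalling targets 3 rose and 4 fell, with a median log2 fold change of -0.27. These are 27.3% higher, compared with 22.4% of all genes, and 36.4% lower, compared with 23.3%. Plk3, a stress-responsive kinase, rose from 99.9 ± 10.6 to 252 ± 44.8 normalized counts, with a log2 fold change of 1.33 (SE 0.17, edgeR adjusted P = 0.000486). The ubiquitin ligases Rchy1 and Cop1, which like Mdm2 act on p53, rose by 0.34 and 0.20 on the log2 scale. Psrc1 (-1.81) and Ckap2 (-1.48), which fell the most, encode proteins of the mitotic spindle. Phlda3 (-0.72), an inhibitor of Akt, and Ptpn14 (-0.27) also fell, and Ppm1d (0.21), Plk2 (-0.20), Gtse1 (-0.75) and Rap2b (-0.33) were not called. The call of Cop1, whose row bears the older symbol Rfwd2, was lost without any 1 of the control kidneys, with no filter and by DESeq2 (0.17 to 0.23). That of Ptpn14 was lost without control kidney 1 or 2 or FeD kidney 1 or 2 (-0.25 to -0.22). Without FeD kidney 1, Ppm1d was called higher (0.28) and Gtse1 lower (-1.12), and without FeD kidney 3 Rap2b was called lower (-0.46).

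Of 12 metabolism and stress targets 10 were tested, 3 rose and 4 fell, with a median log2 fold change of -0.14. Ddit4, which restrains mTORC1 as the sestrins do, rose from 744 ± 60.8 to 3092 ± 352 normalized counts, with a log2 fold change of 2.05 (SE 0.10, edgeR adjusted P = 1.02e-05). Gdf15, a secreted stress factor, rose by 1.55 and the thiamine transporter Slc19a2 by 0.50 on the log2 scale. The autophagy gene Dram1 fell by 1.53, the adenylate kinase Ak1 by 1.14, the peptide transporter Tap1 by 0.73 and the peroxidase Gpx1 by 0.32, whose call was lost without any 1 of the control kidneys, without FeD kidney 2 or with the replicate block (-0.35 to -0.30). Tigar, Fdxr and Ephx1 were not called, and Gls2 and Sco2 were below the filter, with Sco2 listed at 0 in every kidney.

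Of 15 regulators of p53, 14 were tested, 8 rose and 3 fell, with a median log2 fold change of 0.30. These are 57.1% higher, compared with 22.4% of all genes, and 21.4% lower, compared with 23.3%. The ribosomal protein genes Rpl5 and Rpl11, whose products bind Mdm2, rose by 0.76 and 0.44 on the log2 scale. The damage kinase gene Atm rose by 0.54 and the acetyltransferase gene Crebbp by 0.56. The genes that fell were Chek2 (-0.72), Trp53bp1 (-0.45) and Chek1 (-0.95), of which Chek1 was named after its values were seen because its mean was below 50 normalized counts. The call of Chek2 was lost without control kidney 2 or 3 or FeD kidney 1 or 2 (-0.73 to -0.55). That of Chek1 was lost without any 1 of the 6 kidneys (-1.12 to -0.65), and with library size alone, no filter and DESeq2 (-0.95 to -0.94). Cdkn2a, whose Arf product inhibits Mdm2, was below the filter.

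Cell cycle genes, many of which depend on the kinases that p21 inhibits, were described from further lists. Of 20 genes of S, G2 and M phase 0 were higher and 19 were lower by edgeR, with a median log2 fold change of -1.26. The count higher was 0 at an unadjusted P under 0.05 and by DESeq2 as well. Mki67, the proliferation marker, fell from 964 ± 101 to 207 ± 48.1 normalized counts, with a log2 fold change of -2.22 (SE 0.16, edgeR adjusted P = 5.32e-05). Cenpf fell by 2.09, Ccnb2 by 1.95 and Top2a by 1.94 on the log2 scale. Their summed level was 6822 to 7096 normalized counts in control and 2965 to 3759 in FeD kidneys.

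Of the CDK inhibitors and pocket proteins other than Cdkn1a, Cdkn1b, Rbl2 (0.71) and Rb1 (0.29) rose on the log2 scale, and Cdkn2c (-1.67), Cdkn1c and Rbl1 (-0.37) fell. Of 12 G1 cyclins, kinases and E2F genes 2 rose, 4 fell and 6 were not called, with a median of -0.28. These are 16.7% higher, compared with 22.4% of all genes, and 33.3% lower, compared with 23.3%. E2f2 fell by 1.09 on the log2 scale, Cdk4 by 0.31 and Ccnd3 by 0.25, and E2f3 rose by 0.34 and Cdk2 by 0.28. The fourth that fell, Ccne1 (-0.95), was named after its values were seen. The calls of Ccne1, Rb1, Rbl1, Cdk4, Cdk2, Ccnd3 and E2f3 were each lost without at least 1 kidney, with the direction kept. That of E2f3 was also lost with library size alone, no filter, DESeq2 and the replicate block (0.34 to 0.35), and that of Ccne1 with DESeq2 (-0.94).

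Other stress programs that share genes with this one were described from lists as well. Of 15 genes of the ATF4 response, to which Sesn2 also answers, 8 rose, 2 fell and 5 were not called, with a median log2 fold change of 0.29. The 53.3% called higher stand beside 22.4% of all genes, and the 13.3% called lower beside 23.3%. Ddit4, counted above, led the list, followed by Atf3 (1.34), Trib3 (1.20) and Psat1 (0.77), while Phgdh (-0.99) and Shmt2 (-0.86) of serine and glycine synthesis fell. The call of Psat1 was lost without control kidney 1 (0.74) or 2 (0.71). Of 16 immediate early genes, which answer within minutes to growth factors and stress, 12 rose and 0 fell, with a median of 1.05. Called higher were 75.0%, compared with 22.4% of all genes, and called lower 0, compared with 23.3%. The number lower was 0 at an unadjusted P under 0.05 and by DESeq2 too.

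Nr4a1 (2.50), Fos (2.24), Egr1 (1.64) and Atf3 had the largest rises of the immediate early genes on the log2 scale. That of Fos fell to 1.51 without FeD kidney 1. Their list summed to 5801 to 6698 normalized counts in control kidneys and to 15398, 11906 and 12202 in FeD kidneys 1, 2 and 3. FeD kidney 1 was thus the highest both for this sum and for Cdkn1a, Btg2 and Sesn2. Among FeD kidneys the sum was lowest in FeD kidney 2, whereas Cdkn1a, Btg2 and Sesn2 were lowest in FeD kidney 3. Sesn1 and Trp53inp1 were highest in FeD kidney 2 and Mdm2 in FeD kidney 3. The part of the immediate early response in the rise of the called genes was not tested.

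Markers of other cells were given beside these values. Leukocyte markers summed to 2235 to 2631 normalized counts in control and 2247 to 2732 in FeD kidneys, so the sums overlapped. Single markers differed, with 3 of 9 tested markers higher and 2 lower. Itgam (1.37), Cd68 (1.12) and Ptprc (0.56) rose on the log2 scale, and Csf1r (-0.45) and the low Cd79a (-2.38) fell. The call of Ptprc was lost without any 1 of the control kidneys, among other alternatives. Blood cell markers summed to 2474 to 3537 in control and 781 to 1524 in FeD kidneys, and the globin genes Hba-a1, Hba-a2, Hbb-b1 and Hbb-b2 are listed at 0 in every kidney. Adipocyte markers summed to 7774 to 8725 normalized counts in control and 8252 to 10012 in FeD kidneys. Of these 6 markers 4 fell, Plin1 (-2.42), Cfd (-2.15), Adipoq (-0.97) and Cidec (-0.89) on the log2 scale, and Fabp4, the most abundant, rose by 0.58, with a median of -1.22. The call of Adipoq was lost without control kidney 1 or 2. Skeletal muscle markers summed to 30.3 to 53.1 in control kidneys and to 384, 31.2 and 22.5 in FeD kidneys 1, 2 and 3. The part of cell composition in the changes of the 10 genes was not tested.

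**Figure D4:**
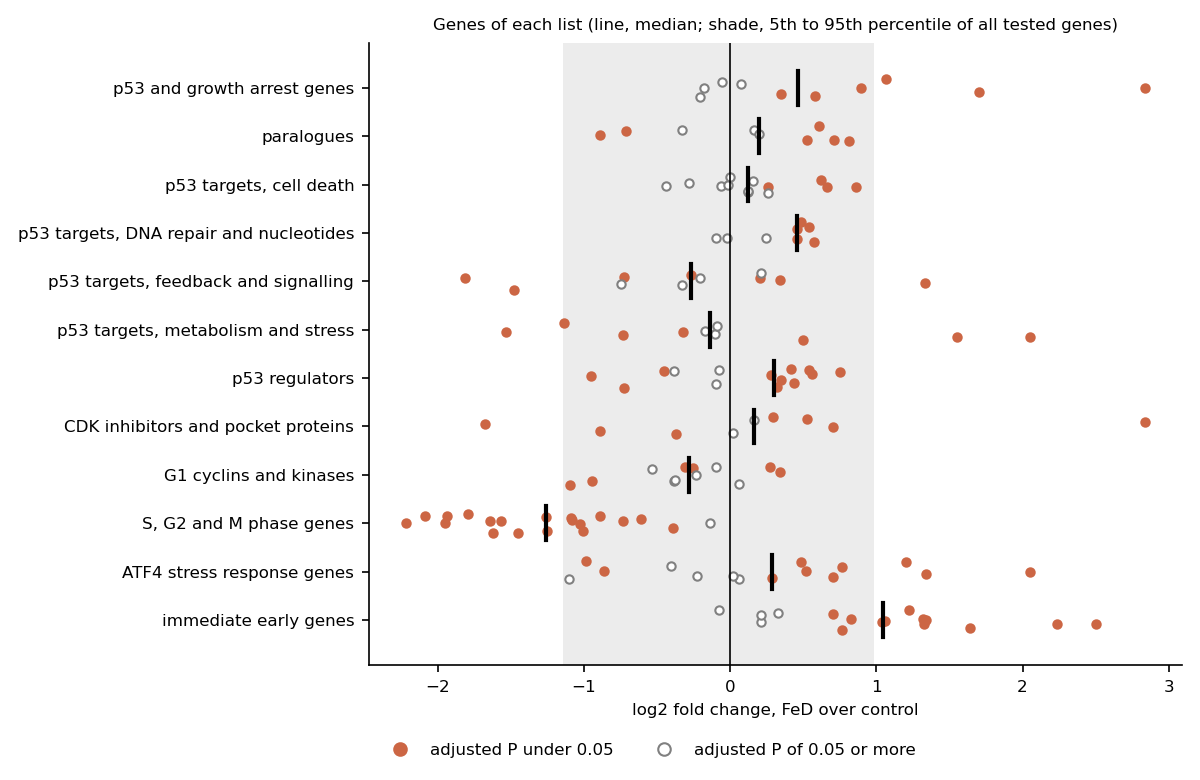
Log2 fold change of FeD over control (horizontal axis) for each gene of each list; filled points passed an adjusted P under 0.05 by edgeR, open points did not, vertical lines are list medians and the shade spans the 5th to 95th percentile of all tested genes (-1.14 to 0.98). The medians run from -1.26 for S, G2 and M phase genes to 1.05 for immediate early genes, with 0.46 for the 10 p53 and growth arrest genes.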

How the data were processed

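RNA-seq was compared between 3 FeD and 3 control kidneys, grouped by the sample labels. The authors isolated total RNA with TRIzol, selected polyadenylated RNA, prepared libraries with TruSeq kits and obtained single-end reads, 100 bases long, on a HiSeq2000. Per the submitters' processing notes, reads passed CASAVA 1.8.2 and Trimmomatic, were aligned to mm9 with TopHat2 2.0.11 and were counted with HTSeq. The authors deposited raw counts per gene, without normalization or pooling. The annotation, counting mode and strand setting are not given in the sources used here. As uniquely mapped reads were kept, genes with close copies can be undercounted; none of the 100-base windows of the 10 genes recurred in another protein-coding gene.

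Totals ranged from 16189041 to 20374327 counts in control and from 13732173 to 20853293 in FeD kidneys. Signals of at most 3 counts were taken as the floor, which covers counting error only. Genes were filtered with filterByExpr and scaled by TMM, and groups were compared with the quasi-likelihood test of edgeR 4.0.16 in R 4.3.3. P was two-sided and adjusted by Benjamini-Hochberg over all 15145 tested genes. A gene was called at an adjusted P under 0.05. P compares the group difference with the spread between these kidneys, moderated over all tested genes. The labels do not say that pups came from separate litters, so P takes no account of litter.

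The SE was the size of the log2 fold change divided by the square root of F, and the 95% interval used the t distribution with the moderated degrees of freedom. Positions and exon lengths came from GENCODE on NCBIM37 (mm9), and the motif was read from that genome. The scripts were tested on simulated data. Alternatives were DESeq2 1.42.0, its size factors, library size alone, no filter, at least 10 counts in every kidney, the replicate number as a block, and each kidney left out.

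The 10 genes and all lists were chosen with earlier results of these data known. The text names each of the 10, their paralogues and the other p53 targets. From the lists of regulators, cell cycle, ATF4 and immediate early genes it names up to 4 called genes per direction with the largest change and a mean of at least 50 normalized counts.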

Additional observations from a re-analysis of the deposited data

How the results depend on the processing

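The 6 genes called higher were called in each of the 12 alternatives, and the number lower was 0 except without FeD kidney 1, where it was 1 (Gadd45g). With each kidney left out, the genes called higher remained 6 and those lower numbered 0 to 1. The genes at least 2-fold higher numbered 2 without FeD kidney 1, where Btg2 was below 2-fold, and 4 without FeD kidney 3, where Sesn2 passed it. The other p53 targets higher numbered 12 to 15 and lower 6 to 9, and all genes 2401 to 3937 higher and 2618 to 3817 lower. DESeq2 called 14 other p53 targets higher and 8 lower, and 3305 genes higher and 3218 lower of all genes. The labels give both groups the numbers 1 to 3, but same-numbered kidneys did not deviate together (r = -0.162, 0 and -0.035), so the numbers were not read as pairs. With the replicate block 6 of the 10 genes were higher and 0 lower, and 14 and 7 of the other p53 targets. Over the genes followed singly and the 12 alternatives, 86 values lost and 7 gained a call with their direction kept. Among uncalled genes, the sign of the log2 fold change turned with a kidney left out for Trp53 (-0.107 to 0.055), Ccng1 (-0.035 to 0.159), Bbc3 (0 to 0.282), Ei24 (-0.040 to 0.054), Eda2r (-0.652 to 0.067), Bid (-0.113 to 0.173), Rps27l (-0.073 to 0.016) and Fdxr (-0.311 to 0.089), and none of them was called in these fits. The log2 fold change of Ei24 was also 0.005 with DESeq2 size factors, 0.008 with at least 10 counts in every kidney and 0.004 with DESeq2. The cause of these turns was not tested. Each value rests on 3 kidneys per group, and litter, sex and the strand setting of the counting are unknown.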
